A study of Mus musculus with 14 samples.

Results

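The phagocyte NADPH oxidase genes *Cybb*, *Cyba*, *Ncf1* and *Ncf4*, the oxidase GTPase gene *Rac2* and the proton channel gene *Hvcn1* were examined in CD11b+ cells of the injured mouse brain. They were taken by symbol from a fixed list, and all 6 were found, once each, among the 33939 genes of the table. RNA-seq libraries had been made from CD11b+ microglia and myeloid cells of the contralateral (CL) and the ipsilateral, lesioned (IL) hemisphere at 3 days after traumatic brain injury (TBI, a controlled cortical impact). The 14 libraries came from 8 mice and formed 4 groups, with 4 libraries per hemisphere in Ctrl and 3 per hemisphere in cKO mice, and 6 mice gave both hemispheres. No libraries of sham or naive mice were analysed here, so each contrast of the hemispheres lies within injured brains.

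All mice were C57BL/6, 8 to 12 weeks old, and had received tamoxifen. By the study's methods, Ctrl mice were Cx3cr1-CreER+/-, and cKO mice carried the same Cre allele with both copies of *Nhe1* floxed (Cx3cr1-CreER+/-;Nhe1 flox/flox). The Cre allele and tamoxifen were then shared by all 4 groups, although the sample titles call the Ctrl mice wildtype. The Cre acts in cells with an active *Cx3cr1* gene, which include microglia and many monocytes, and the study left a waiting period after tamoxifen in which blood monocytes are replaced. Neutrophils also carry CD11b, with little *Cx3cr1*, and so may pass the bead sort without deletion. The cKO IL library 784 and the cKO CL library 788 have no partner and were treated as coming from separate animals. Whether they are 1 mouse under a mistyped number could not be settled from the labels, and the count of 8 mice and every cKO fit matched by mouse rest on their being separate.

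The phagocyte oxidase passes electrons from NADPH across a membrane to oxygen and so makes superoxide. *Cybb* encodes gp91phox, the electron-carrying subunit, and *Cyba* encodes p22phox, its membrane partner, and the pair is joined on activation by cytosolic proteins, among them p47phox (*Ncf1*) and p40phox (*Ncf4*), with a Rac GTPase. Each electron moved leaves a proton behind, and the voltage-gated channel Hv1 (*Hvcn1*) lets those protons out. Microglia, monocytes, macrophages and above all neutrophils contain this oxidase. The comparisons therefore ask whether the oxidase and its proton outlet were transcribed at other levels in the lesioned hemisphere and in cKO cells.

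RefSeq promoter windows (build GRCm38.p6) were at hand for 3 of the 6 genes, *Cybb*, *Cyba* and *Ncf1*. The 180 bases before each start site are printed because *Cybb* and *Cyba* passed the test between the cKO hemispheres and *Ncf1* did not. Capitals mark matches, on either strand, to a PU.1 core (GAGGAA), an AP-1 site (TGANTCA) and an interferon-response element (GAAANNGAA).

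Cybb, chrX:9469325-9469504, minus strand: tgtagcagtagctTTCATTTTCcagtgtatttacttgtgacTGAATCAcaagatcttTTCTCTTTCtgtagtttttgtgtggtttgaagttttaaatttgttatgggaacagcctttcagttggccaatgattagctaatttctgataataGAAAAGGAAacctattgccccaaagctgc

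Cyba, chr8:122432941-122433120, minus strand: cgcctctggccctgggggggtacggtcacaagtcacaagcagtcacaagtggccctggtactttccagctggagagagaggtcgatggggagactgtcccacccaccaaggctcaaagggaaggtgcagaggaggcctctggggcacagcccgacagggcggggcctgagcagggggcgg

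Ncf1, chr5:134229626-134229805, minus strand: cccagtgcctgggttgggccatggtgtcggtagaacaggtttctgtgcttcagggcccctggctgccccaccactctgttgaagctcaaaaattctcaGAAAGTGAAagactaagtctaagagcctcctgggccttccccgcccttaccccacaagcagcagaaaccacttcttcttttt

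The *Cybb* window held 4 matches, 1 to the AP-1 letters (139 to 133 bases before the start) and 3 to the interferon-response letters, the closest at 29 to 21 bases before the start. The *Ncf1* window held 1 interferon-response match, 82 to 74 bases before the start, the *Cyba* window held none of the 3 motifs, and the PU.1 letters were in none of the 3 windows. Over all 32851 RefSeq windows of this length, 17.1% held the PU.1 letters, 4.97% the AP-1 letters and 4.89% the interferon-response letters. Base composition also set the windows apart, with 35.6% G and C in *Cybb*, 53.9% in *Ncf1* and 66.1% in *Cyba*. The *Cybb* start site of RefSeq lies inside the longer gene span of the GENCODE annotation.

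In GRCm38 the genes lie at chrX:9435252-9487771 (*Cybb*, ENSMUSG00000015340, minus strand), chr8:122424776-122432930 (*Cyba*, ENSMUSG00000006519, minus), chr5:134220053-134229625 (*Ncf1*, ENSMUSG00000015950, minus), chr15:78244801-78262580 (*Ncf4*, ENSMUSG00000071715, plus), chr15:78559167-78572783 (*Rac2*, ENSMUSG00000033220, minus) and chr5:122206804-122242297 (*Hvcn1*, ENSMUSG00000064267, plus). Opposite-strand genes overlap exons of 2 of them. *Tctn1* shares 1574 of the 3563 exon bases of *Hvcn1*, and *Gtf2ird2* shares 408 of the 3663 exon bases of *Ncf1*. Without strand in the library kit, reads in those stretches cannot be told apart, and the rows of *Tctn1* (13.8 to 21.2 CPM) and *Gtf2ird2* (5.66 to 24.9 CPM) stayed far below the rows of both genes. CPM are the authors' values, scaled to a sum of 1e+06 in each library.

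Depth was 12.2 to 41.6 M reads per library, with a median of 34.2 M, and the Ctrl IL library of mouse 3546 was the shallowest. The 10 microglia markers summed to between 36752 and 43901 CPM in CL and between 21300 and 26012 CPM in IL libraries, none of them at 0, so the sorted cells carried their labelled type in both hemispheres. Neutrophil and monocyte markers were also present in every library and are given beside the results they moved with.

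Library 3546 of the Ctrl IL group stood apart before any contrast. Each library was compared with the median of the others of its group over 9051 genes. The median log2 deviation of the 906 genes with the shortest transcripts (at most 1308 bases) was -1.37 in that library, against -0.51 to 0.25 in the other 13. The Ctrl libraries also differed by length among themselves, with the deviation of the longest transcripts (at least 6615 bases) minus that of the shortest ranging from -0.65 to 1.97, while the 6 cKO libraries stayed between -0.07 and 0.06. *Cyba*, whose longest transcript has 744 bases, is shorter than all but 3.05% of these genes, so its values in library 3546 are given with and without that library. The part of transcript length in any result here was not tested beyond a fit that removes the length trend.

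**Figure D1:**
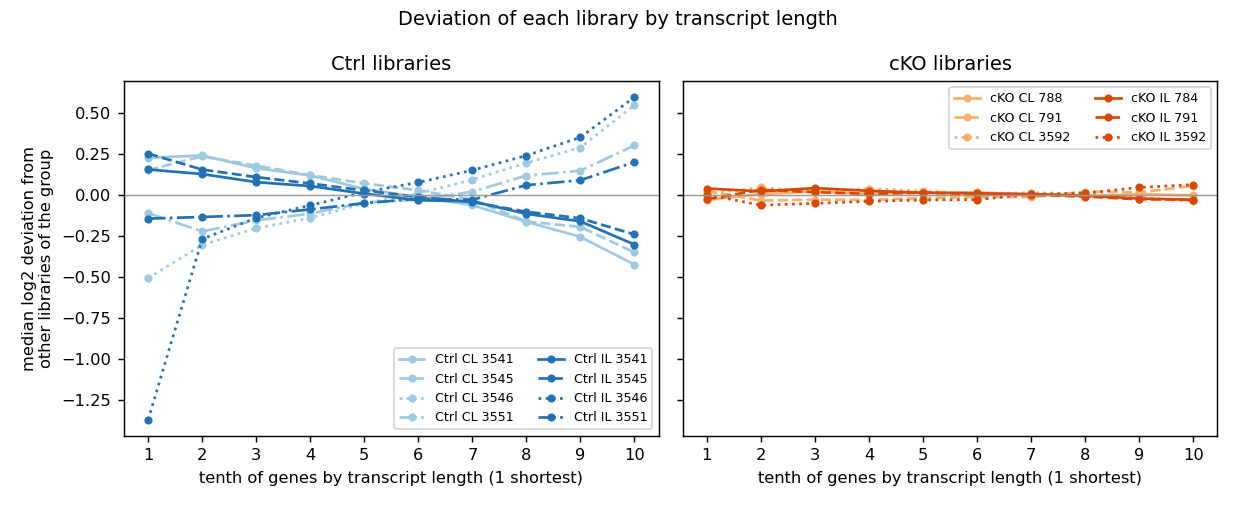
Median log2 deviation of each library from the other libraries of its group (y axis) for genes split into 10 classes by the length of their longest transcript (x axis, 1 shortest), with Ctrl libraries on the left and cKO libraries on the right, CL in the lighter and IL in the darker colour. The Ctrl IL library 3546 drops to -1.37 in the shortest class, and the 6 cKO libraries stay near 0.

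Per kilobase of exon, the order of levels in Ctrl CL cells was *Cyba* at 466 ± 79.4 CPM per kb (SD, n = 4), *Ncf1* at 133 ± 7.59, *Rac2* at 98.1 ± 31.8, *Hvcn1* at 88.9 ± 10.6, *Ncf4* at 60.9 ± 12.8 and *Cybb* at 22.2 ± 8.495 CPM per kb. On this scale *Cyba*, the small membrane subunit, was the highest and *Cybb*, its partner, the lowest of the 6 in each of the 4 groups. *Rac2* could not be separated from its neighbours *Ncf1* and *Hvcn1* within the Ctrl CL libraries, where it ran from 75.1 to 143 CPM per kb. It stood below *Hvcn1* in cKO CL cells (77.8 ± 6.50 against 83.9 ± 10.5 CPM per kb, n = 3) and above it in the other 3 groups. At the depth of these libraries each member rested on at least 1171 reads' worth in every library, so counting error was small beside the spread between mice.

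Between the hemispheres, some members were called higher in the lesioned side of cKO brains and 0 of 6 were called in Ctrl brains. These fits did not match the hemispheres by mouse. With the mouse as a replicate block the cKO calls were lost and *Hvcn1* was called in Ctrl, as given below. The counts that follow are without the block. In cKO cells 3 of the 6 genes were called, all higher in IL, namely *Cybb*, *Cyba* and *Rac2*, where a call needs an adjusted p of at most 0.05 with a change of 1.2-fold or more. The background was high, with 22.7% of 16757 genes called in that contrast and 12.5% called higher. In Ctrl cells 0 of 6 were called by limma, against 6.69% of 16376 genes called and 3.74% called higher, and 3465 genes had an unadjusted p under 0.05. Neither the test between genotypes in IL (0 of 6, background 0.676%, with 1507 genes at an unadjusted p under 0.05) nor that in CL (0 of 6, background 0.869%, with 1655 such genes) called a member. The difference between the hemisphere effects of cKO and Ctrl was not shown for any member either, since the interaction called 0 of 6 members and 0% of 18476 genes, with 465 genes at an unadjusted p under 0.05.

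The cKO calls depended on how the hemispheres were matched. With the mouse as a replicate block, which leaves the 4 libraries of the 2 cKO mice that gave both sides, 0 of 6 members were called, and the adjusted p was 0.0592 for *Cyba*, 0.0916 for *Cybb* and 0.107 for *Rac2*. A fit over all 14 libraries together also called 0 of 6 in cKO, with or without the mouse as a random effect. The same block in Ctrl, over 4 mice, called 1 member, *Hvcn1*, which was lower in IL (adjusted p = 0.0424). Over all genes the block called 3302 of 16376 in Ctrl and 2102 of 16752 in cKO. Leaving out 1 library gave between 1 and 4 called members in cKO, with 1 left without cKO CL 788, without cKO IL 784 or without cKO IL 791. Fewer cells of a type and less RNA per cell cannot be told apart in these bulk samples.

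**Figure D2:**
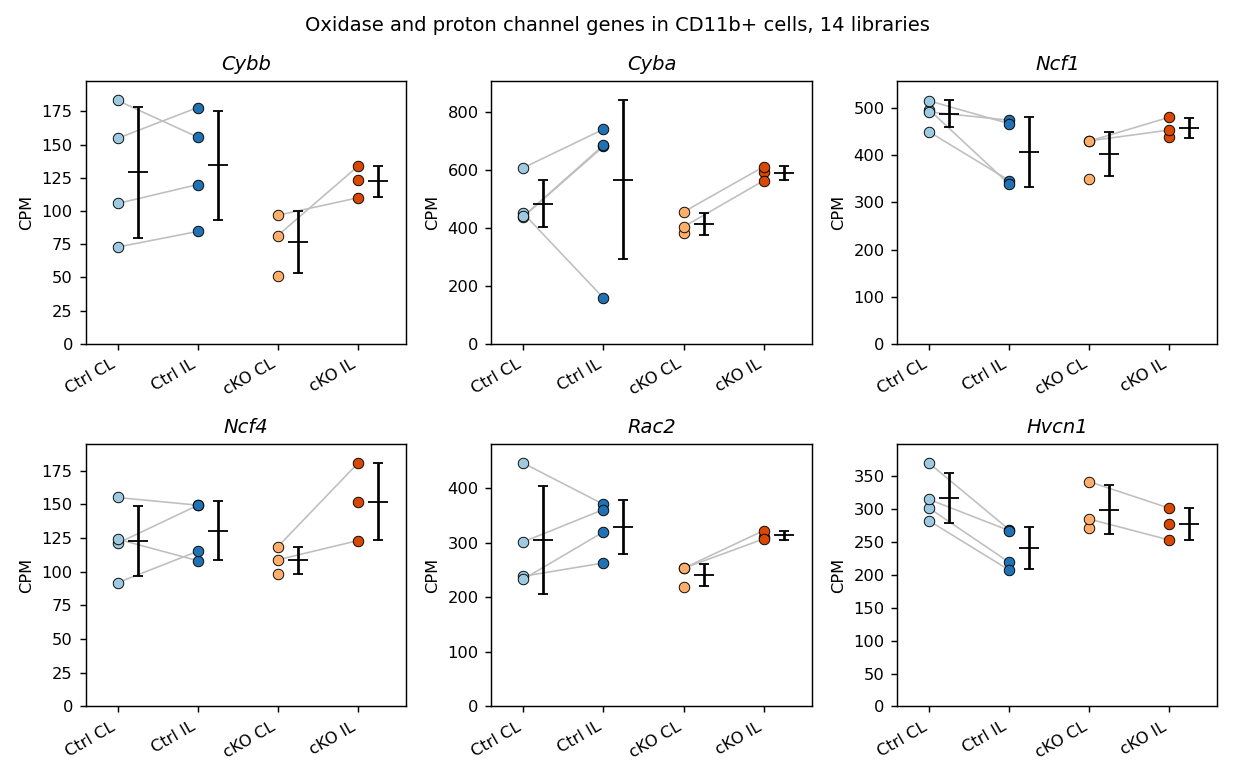
CPM of the 6 genes in each library (points, linear axes from 0), with grey lines joining the hemispheres of a mouse and black bars giving the mean and SD of each group (n = 4 for Ctrl, n = 3 for cKO). The cKO IL points lie above the cKO CL points in every panel but *Hvcn1*, and a single Ctrl IL library holds *Cyba* at 158 CPM.

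*Cybb*, the electron-carrying subunit, was at 183, 106, 155 and 72.9 CPM in the CL libraries of Ctrl mice 3541, 3545, 3546 and 3551, and at 156, 120, 178 and 84.6 CPM in their IL libraries in the same order. It was at 51.1, 81.5 and 96.8 CPM in cKO CL (mice 788, 791 and 3592) and at 123, 134 and 110 CPM in cKO IL (mice 784, 791 and 3592). The Ctrl hemispheres overlapped almost fully, whereas every cKO IL library was above every cKO CL library. In Ctrl, mice 3541 and 3546 were the 2 highest and 3551 the lowest on both sides. Mean levels were 129 ± 49.3 (SD, n = 4) and 135 ± 41.0 CPM in the CL and IL cells of Ctrl, and 76.5 ± 23.2 (n = 3) and 122 ± 11.9 CPM in those of cKO. The fitted log2 fold change of IL over CL was 0.78 (SE 0.21, adjusted p = 0.0329) in cKO, a 1.72-fold rise, and 0.17 (SE 0.35, adjusted p = 0.865) in Ctrl. The cKO call was lost without cKO CL 788 (adjusted p = 0.0529) or 791 (0.0610) and without cKO IL 784 (0.0878) or 791 (0.114). It was also lost with the replicate block (0.52, adjusted p = 0.0916), the mouse as a random effect (0.74, adjusted p = 0.0702) and all 14 libraries in a fit (0.83, adjusted p = 0.195). Blocking on the mouse narrowed the Ctrl error to 0.097 without reaching the threshold (adjusted p = 0.264). In CL cells the cKO mean lay below the Ctrl mean, with a log2 difference of -0.74 (95% interval -1.47 to 0.0020, adjusted p = 0.503), and in IL cells the difference was -0.08 (-0.65 to 0.50).

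*Cybb* levels ran alongside the markers of infiltrating cells among the CL libraries. Ordered by the summed level of 10 monocyte markers, the 7 CL libraries had 123, 132, 193, 270.3, 338, 396 and 764 CPM of those markers, and *Cybb* at 51.1, 72.9, 81.5, 106, 96.8, 155 and 183 CPM. Both values climbed together but for 1 pair of neighbours, and ordered by the 13 neutrophil markers, from 1373 to 9093 CPM, the libraries stood in the same order as by *Cybb*. In the IL libraries the monocyte markers summed to between 609 and 911 CPM, above every CL library but Ctrl CL 3541 (764 CPM), and the neutrophil markers to between 918 and 1574 CPM, below every CL library but for Ctrl IL 3541, which passed cKO CL 788 and Ctrl CL 3551. None of these 23 markers was at 0 in any library. The monocyte sums rested largely on single genes. In Ctrl CL *Chil3* ran from 27.8 to 538 CPM, while *Ccr2* ran from 30.8 to 40.9 CPM. *Fn1* had means of 27.4 and 56.8 CPM in the CL cells of Ctrl and cKO, and of 457 and 476 CPM in their IL cells. The *Chil3* means were 236 and 73.7 CPM in CL and 104 and 62.2 CPM in IL. Of the 10 monocyte markers 6 rose in cKO IL over cKO CL and 5 in Ctrl, where 12.5% and 3.74% of all genes were called higher (with the replicate block, 7 rose in cKO, and 5 rose and 1 fell in Ctrl). Of the 13 neutrophil markers 8 fell in cKO and 0 were called in Ctrl, where 10.2% and 2.95% of all genes were called lower (9 and 11 fell with the block). Of the 10 microglia markers 7 fell in each genotype (6 in cKO and 8 in Ctrl with the block). Over all genes the block called 2102 of 16752 in cKO and 3302 of 16376 in Ctrl, in either direction. The part of these cells in the *Cybb* values was not tested.

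**Figure D3:**
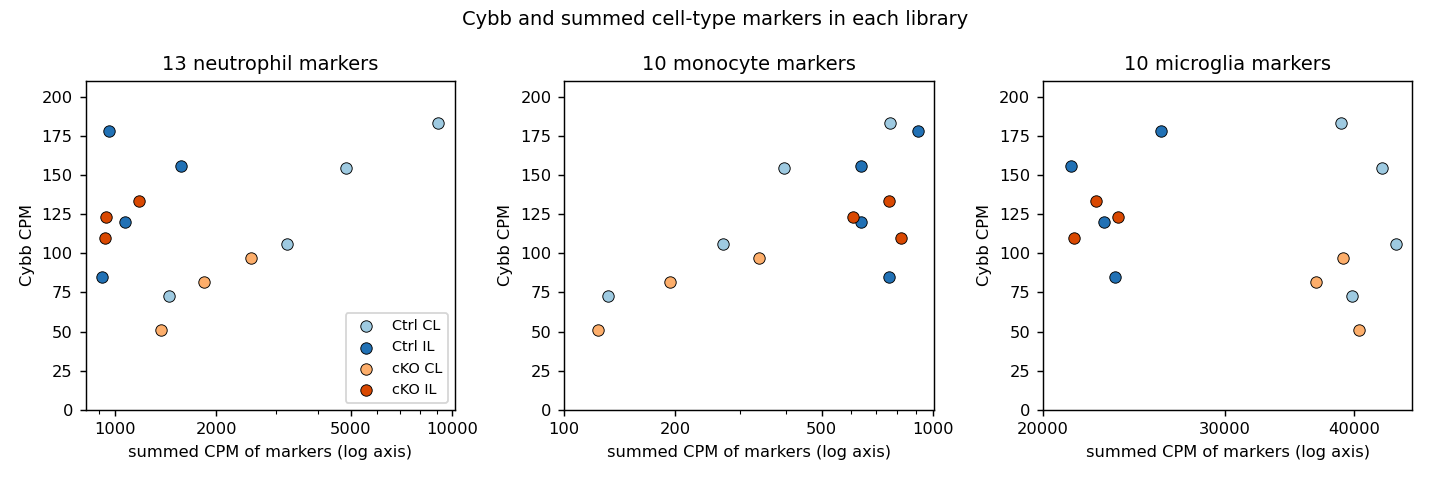
*Cybb* CPM (linear y axis) against the summed CPM of neutrophil, monocyte and microglia markers (log x axes) in the 14 libraries, coloured by group. Among the light CL points *Cybb* climbs with the neutrophil and monocyte sums, while the dark IL points sit at low neutrophil and high monocyte sums with *Cybb* between 84.6 and 178 CPM.

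*Cyba*, which encodes p22phox, was at 607, 439, 450.2 and 439.8 CPM in Ctrl CL (mice 3541, 3545, 3546 and 3551) and at 740.3, 681, 158 and 685 CPM in Ctrl IL. Its cKO values were 382, 404 and 455 CPM in CL (788, 791 and 3592) and 594, 563 and 611 CPM in IL (784, 791 and 3592). The injured side was the higher in 3 of 4 Ctrl mice and in both cKO mice with paired libraries, and the exception was library 3546, which had less than any other of the 14. The cKO hemispheres did not overlap. The fitted log2 fold change of IL over CL was 0.58 (SE 0.10, adjusted p = 0.00686) in cKO, 1.5-fold, and it stayed past the threshold whichever cKO library was left out. The call was lost with the mouse as a replicate block (0.53, adjusted p = 0.0592), with the mouse as a random effect (0.61, adjusted p = 0.329) and with all 14 libraries in a fit (0.63, adjusted p = 0.494). Removing the length trend lowered the value to 0.38 (adjusted p = 0.0315), and to 0.34 with the block as well, where it was not called (adjusted p = 0.180). In Ctrl it was 0.09 (SE 0.50, adjusted p = 0.956) with all libraries and 0.70 (SE 0.22, adjusted p = 0.0739) without Ctrl IL 3546. With both hemispheres of mouse 3546 left out and the mouse as a block, *Cyba* was called in Ctrl, at 0.63 (SE 0.11, adjusted p = 0.00362), a choice made after the values were seen. Between genotypes in IL the log2 difference was 0.29 (SE 0.57) and turned to -0.30 without that library, and in CL it was -0.24 (SE 0.20, adjusted p = 0.716).

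*Ncf1*, the p47phox organizer that carries the activation signal to the membrane, was at 449.9, 497, 492 and 516 CPM in Ctrl CL and at 347, 339, 475 and 467 CPM in Ctrl IL (mice 3541, 3545, 3546 and 3551). In cKO it was at 349, 431 and 430.4 CPM in CL (788, 791 and 3592) and at 438, 454 and 481 CPM in IL (784, 791 and 3592). CPM was lower in IL than in CL in each of the 4 Ctrl mice, at ratios of 0.681 to 0.964, and was higher in both cKO mice with paired libraries, at ratios of 1.05 and 1.12. After scaling, the Ctrl mouse 3551 had a log2 difference of 0.07 and so lost that direction, which held in 3 of 4 Ctrl mice on that scale. The fitted log2 fold change of IL over CL was -0.20 (SE 0.13, adjusted p = 0.435) in Ctrl and 0.26 (SE 0.10, adjusted p = 0.114) in cKO, where the libraries did not overlap. The interaction, from a fit of all 14 libraries scaled together, was 0.48 (95% interval 0.11 to 0.86), with an unadjusted p of 0.0144 and an adjusted p of 0.99986. Against Ctrl, the cKO libraries were lower in CL (-0.31, SE 0.15, adjusted p = 0.549) and higher in IL after scaling (0.20, SE 0.11, adjusted p = 0.706), without overlap of the scaled values in either hemisphere and without passing the test.

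*Ncf4*, which encodes p40phox, a subunit that binds a phagosome lipid, was at 155, 121, 124 and 91.8 CPM in Ctrl CL and at 149, 149, 108 and 115 CPM in Ctrl IL (mice 3541, 3545, 3546 and 3551). The cKO values were 98.4, 118 and 109 CPM in CL (788, 791 and 3592) and 152, 180.4 and 123 CPM in IL (784, 791 and 3592). Ctrl hemispheres overlapped, with 2 mice higher and 2 lower in IL by CPM (3 higher and 1 lower after scaling), whereas the cKO IL libraries were all above the cKO CL libraries. The log2 fold change of IL over CL was 0.17 (SE 0.26, adjusted p = 0.795) in Ctrl and 0.54 (SE 0.17, adjusted p = 0.0523) in cKO, just outside the threshold. It was called in cKO without the IL library of mouse 3592 (0.72, adjusted p = 0.0160) and when genes needed 10 reads' worth in every library (adjusted p = 0.0494). Genotypes differed by 0.22 (SE 0.25) in IL and by -0.18 (SE 0.22) in CL on the log2 scale.

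*Rac2*, the GTPase of blood-derived cells that switches the oxidase on, was at 445, 301, 238 and 233 CPM in Ctrl CL and at 370.1, 360.4, 263 and 319 CPM in Ctrl IL (mice 3541, 3545, 3546 and 3551). In cKO it was at 218, 253 and 253 CPM in CL (788, 791 and 3592) and at 311, 322 and 307 CPM in IL (784, 791 and 3592). A single Ctrl CL library, that of mouse 3541, was above all others, and the same library had the highest neutrophil marker sum of the series, 9093 CPM. The 3 cKO IL libraries lay close together, above every cKO CL library. The log2 fold change of IL over CL was 0.45 (SE 0.099, adjusted p = 0.0160) in cKO, 1.36-fold, and 0.23 (SE 0.30, adjusted p = 0.752) in Ctrl. The cKO call was lost without cKO CL 788 (adjusted p = 0.0553), without cKO IL 784 (0.0656) and without cKO IL 791 (0.0666), and likewise with the replicate block (0.107), the mouse as a random effect (0.145) and all 14 libraries in a fit (0.348). Genotype differences were -0.05 (SE 0.21) in IL and -0.31 (SE 0.27, adjusted p = 0.721) in CL.

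*Hvcn1*, which encodes the proton channel, was at 301, 282, 369 and 314 CPM in Ctrl CL and at 219, 207, 268 and 267 CPM in Ctrl IL (mice 3541, 3545, 3546 and 3551). In cKO it was at 270.4, 341 and 285 CPM in CL (788, 791 and 3592) and at 276, 301 and 253 CPM in IL (784, 791 and 3592). Every Ctrl mouse had less in IL, at ratios from 0.727 to 0.849 in CPM, and the Ctrl hemispheres did not overlap, whereas the cKO hemispheres did. Both cKO mice with paired libraries also had less in IL by CPM, at ratios of 0.882 and 0.888. After scaling, the log2 difference of Ctrl mouse 3551 was -0.025, and 1 of the paired cKO mice was higher and 1 lower in IL. The log2 fold change of IL over CL in Ctrl was -0.32 (SE 0.12, adjusted p = 0.167), which missed the threshold, and with the mouse as a replicate block the same change had an SE of 0.088 and was called (adjusted p = 0.0424). With the length trend removed as well, the blocked value was -0.26 (adjusted p = 0.0537). For cKO the fitted value was -0.04 (SE 0.13, adjusted p = 0.870), near no change. The interaction was 0.31 (95% interval -0.09 to 0.70), so a weaker change in cKO was not shown. Genotypes differed by 0.22 (SE 0.13, adjusted p = 0.716) in IL and by -0.11 (SE 0.15, adjusted p = 0.818) in CL.

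**Figure D4:**
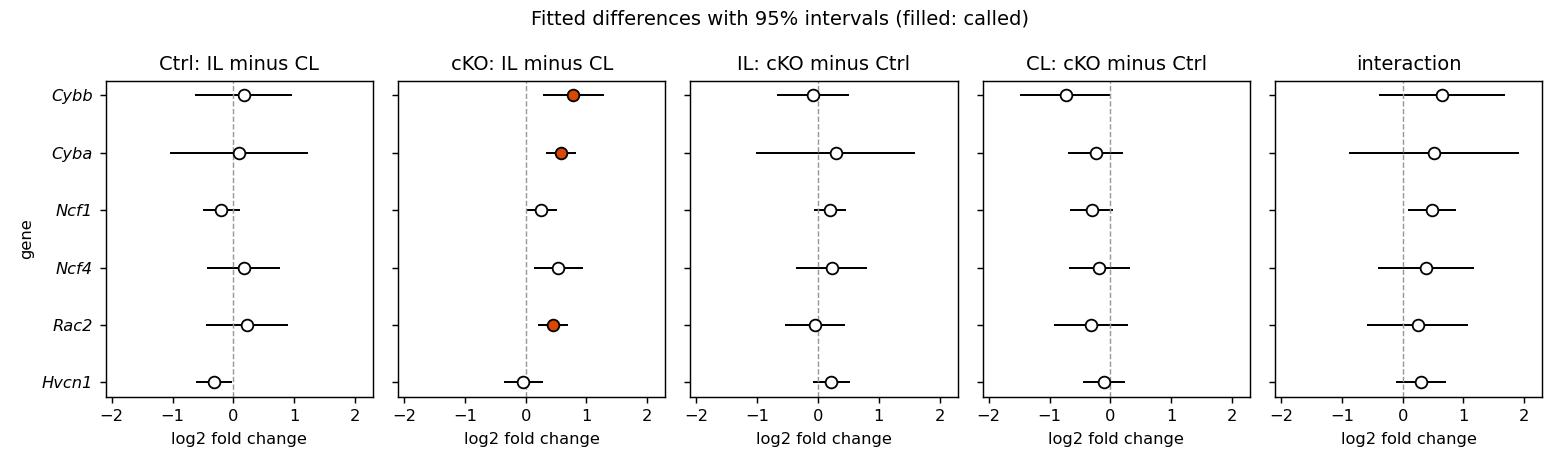
Fitted log2 fold changes (points) with 95% intervals (lines) of the 6 genes in the 5 tests, where filled points were called. Of these, *Cybb*, *Cyba* and *Rac2* in the contrast of the cKO hemispheres are filled, and the dashed line marks 0.

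Separation of the libraries was counted in the same way. The 2 hemispheres did not overlap for 5 of 6 members in cKO, all but *Hvcn1*, against 42.2% of all genes tested, and for 1 of 6 in Ctrl, *Hvcn1*, against 15.2%. Genotypes did not overlap for 1 of 6 members in IL and 1 of 6 in CL, *Ncf1* in both, where 10% and 9.52% of genes tested had no overlap. The median log2 fold change of the 6 was 0.49 in the cKO hemispheres (0.01 over all genes) and 0.13 in the Ctrl hemispheres (-0.03 over all genes). Between genotypes the medians were 0.21 in IL (0.01 over all genes) and -0.27 in CL, where all 6 were negative (-0.07 over all genes). In CL, the 13 neutrophil markers had a median log2 difference of -1.27 between cKO and Ctrl, with 0 of 13 called. The 7 markers of border-associated macrophages had a median of -0.94, all 7 negative and 0 called, and the 10 monocyte markers had a median of -0.26, with 0 called. The part of these cells in the 6 lower means was not tested.

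Correlations between members across the 14 libraries changed with library 3546 for pairs of *Cyba* with *Cybb*, *Rac2* and *Hvcn1*. *Ncf4* and *Rac2* had the highest Pearson r, 0.89 (0.88 without Ctrl IL 3546), followed by *Cyba* and *Rac2* at 0.72 (0.90 without it) and *Cybb* and *Ncf4* at 0.71 (0.84 without it). *Cyba* and *Cybb*, whose proteins form the membrane dimer, had an r of 0.22 over all 14 libraries and of 0.70 over the 13 others. *Hvcn1* had an r of 0.09 with *Cyba* (-0.34 without library 3546) and of 0.02 to 0.46 with the other members, values that changed with the removal of group means, from 0.02 to 0.34 with *Rac2*, from 0.24 to 0.57 with *Ncf4* and from 0.11 to 0.45 with *Cybb*. Among 10419 genes with a mean log2(CPM + 1) of at least 3 in a group, the nearest to *Cybb* were *Lsp1* (r = 0.92), *Slfn4* (0.92) and *Plbd1* (0.90). *Cyba* was nearest to *Ndufb7*, *Mrps24* and *Timm13* (0.99 each, and 0.97, 0.98 and 0.96 without library 3546), genes of mitochondrial proteins. The nearest genes were *Rcn1*, *Pigk* and *Oaf* for *Ncf1* (0.81 to 0.80), *Dnajc12*, *Ifi35* and *BC005624* for *Ncf4* (0.96 to 0.94), *Acadvl*, *Clptm1* and *Nubp2* for *Rac2* (0.96 to 0.95) and *Lacc1*, *Pank4* and *Nudt16* for *Hvcn1* (0.79 to 0.77). These values describe 14 libraries that share mice, depth and, in Ctrl, the length trend above.

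Of the other oxidase genes, the chaperone gene *Cybc1* was called in both contrasts of the hemispheres, and it fell in the lesioned hemisphere of both genotypes. *Cybc1* encodes EROS, which is needed to make stable gp91phox and p22phox, and it ran from 152 to 175 CPM in CL and from 86.0 to 128 CPM in IL cells of Ctrl, and from 117 to 149 CPM in CL and 75.7 to 82.9 CPM in IL cells of cKO. The hemispheres did not overlap in either genotype. Its log2 fold change of IL over CL was -0.68 (SE 0.16, adjusted p = 0.0312) in Ctrl and -0.69 (SE 0.11, adjusted p = 0.00603) in cKO, and both calls held with the mouse as a replicate block (adjusted p = 0.00411 and 0.0276). In cKO cells the chaperone fell on the side where *Cybb* and *Cyba* were called higher. *Duoxa1*, a maturation factor of the dual oxidases, was at 9.71 ± 1.71 CPM (SD, n = 3) in cKO CL and fell to 3.10 ± 0.759 in cKO IL (log2 fold change -1.33, adjusted p = 0.00495), and in Ctrl its change of -0.79 was called with the replicate block alone (adjusted p = 0.0155, against 0.0562).

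The rest of the family passed no test or was nearly absent. *Rac1*, the ubiquitous Rac, had group means of 681 to 751 CPM and *Rap1a*, a small GTPase bound to the flavocytochrome, of 49.0 to 61.0 CPM, and neither was called in any of the 5 tests. The other catalytic oxidases *Nox1*, *Nox4*, *Duox1* and *Duox2* reached at most 1.72 CPM in a library and were left out by the filter on low values. In all, 11 of 14 listed genes were in the table and 7 were tested, of which 0 rose and 1 fell in Ctrl and 0 rose and 2 fell in cKO, against 6.69% and 22.7% of all genes called in either direction. Between genotypes 0 of 7 were called in either hemisphere.

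A list of 22 receptors, kinases, exchange factors and inhibitors that act on the oxidase or on Rac had calls in both directions. In IL over CL, 1 rose and 1 fell in Ctrl, and 4 rose and 3 fell in cKO, where 6.69% and 22.7% of all genes were called. (The replicate block gave 4 and 3 in Ctrl, with 3302 of 16376 genes called, and 1 and 3 in cKO, with 2102 of 16752.) *Vav3*, an exchange factor for Rac, rose in Ctrl (log2 fold change 1.39, adjusted p = 0.00901) and in cKO (1.51, adjusted p = 0.0183), and *Pak1*, a Rac-activated kinase, fell in both (-0.70, adjusted p = 0.0396, and -0.79, adjusted p = 0.00647). *Fcer1g*, the signalling chain of Fc receptors, rose in cKO (0.45, adjusted p = 0.0151). The other 2 that rose in cKO were *Arhgdia*, whose protein holds Rac inactive in the cytosol (0.48, adjusted p = 0.0108), and *Abr* (0.41, adjusted p = 0.0124). The *Abr* protein can speed the switching off of Rac, and the gene was named after its values were seen. With the replicate block *Fcer1g* (adjusted p = 0.122), *Arhgdia* (0.0876) and *Abr* (0.0728) were not called in cKO, while *Arhgdia* (0.00593) and *Abr* (0.00157) were called higher in Ctrl. *Dock2*, an exchange factor of the list also named after its values were seen, was called higher in that Ctrl fit too (0.37, adjusted p = 0.0201). *Prkca*, a protein kinase C (-1.36, adjusted p = 0.00294), and *Pik3cg*, a phosphoinositide kinase (-0.58, adjusted p = 0.00926), fell in cKO, and with the block they were called lower in Ctrl too (adjusted p = 0.00632 and 0.00305). The median over the 22 genes was 0.13 in Ctrl and 0.02 in cKO, beside -0.03 and 0.01 over all genes.

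Of 8 genes listed for the supply of NADPH, the substrate of the oxidase, 3 rose, 0 fell and 5 were not called in Ctrl. In cKO 6 rose, 0 fell and 2 were not called. Of all genes, 6.69% and 22.7% were called in either direction. (The mouse as a replicate block gave 4 in Ctrl, with 3302 of 16376 genes called, and 1 in cKO, with 2102 of 16752.) The list includes *Tkt* and *Pgls*, whose enzymes act in the pentose phosphate pathway without making NADPH themselves. The Ctrl calls were *Me1*, malic enzyme (log2 fold change 1.11, adjusted p = 0.0211), *Idh1*, cytosolic isocitrate dehydrogenase (0.99, adjusted p = 0.0176), and *Pgd* of the pentose phosphate pathway (0.62, adjusted p = 0.0184). *Pgd* (0.73, adjusted p = 0.0216), *Tkt* (0.52, adjusted p = 0.0151) and *Pgls* (0.52, adjusted p = 0.00524), also of the pentose phosphate pathway, had the largest called changes in cKO, and with the replicate block *Tkt* (adjusted p = 0.0597) and *Pgls* (0.0506) were not called. The list medians were 0.40 and 0.50.

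Of 13 genes listed as acting on superoxide and peroxide, 2 rose, 0 fell and 11 were not called in Ctrl, and 7 rose and 1 fell in cKO, where 3.74% and 12.5% of all genes were called higher. (The replicate block gave 3 and 1 in Ctrl, with 3302 of 16376 genes called in either direction, and 4 and 1 in cKO, with 2102 of 16752.) The peroxiredoxin genes *Prdx6* (log2 fold change 1.82, adjusted p = 0.00622) and *Prdx1* (1.38, adjusted p = 0.0372) rose in Ctrl, and they rose in cKO by 1.52 (adjusted p = 0.00289) and 1.13 (adjusted p = 0.00229). *Sod2*, mitochondrial superoxide dismutase, rose in cKO (1.04, adjusted p = 0.00324). The gene that fell in cKO was *Mpo* (-1.52, adjusted p = 0.00505), a granule enzyme of neutrophils that uses peroxide to make hypochlorous acid, and it fell alongside the neutrophil markers. The list medians were 0.24 in Ctrl and 0.45 in cKO.

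Of 8 transcription factors known to act on promoters of phagocyte oxidase genes, 0 were called in Ctrl by limma and 3 in cKO, against 6.69% and 22.7% of all genes. (The replicate block gave 2 higher and 1 lower in each genotype, with 3302 of 16376 genes called in Ctrl and 2102 of 16752 in cKO.) In cKO 2 rose, among them *Cebpb* (log2 fold change 0.92, adjusted p = 0.00931), and *Nfkb1* fell (-0.66, adjusted p = 0.0120). *Spi1*, which encodes PU.1, had log2 fold changes of 0.06 in Ctrl and 0.04 in cKO (adjusted p = 0.913 and 0.827). None of the genes of the lists of other oxidase genes, oxidase and Rac control, NADPH supply, superoxide and peroxide enzymes and regulators was called between genotypes in IL or in CL.

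**Figure D5:**
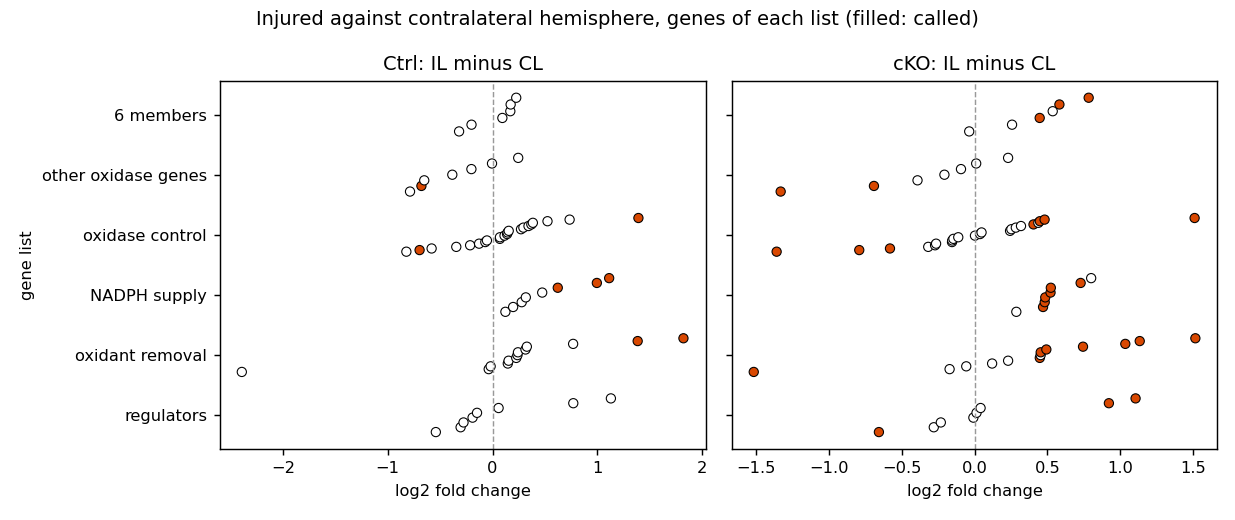
Fitted log2 fold changes of IL over CL (x axis) in Ctrl (left) and cKO (right) for the tested genes of each list (y axis, 1 point a gene, filled where called). The NADPH supply genes all lie to the right of 0 in both genotypes, and the 6 oxidase and channel genes are called on the right in cKO only as *Cybb*, *Cyba* and *Rac2*.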

How the data were processed

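CD11b+ cells from 14 hemispheres were profiled by Smart Seq v4 RNA-seq. Per the submitters' processing notes and the study's methods, reads were aligned with STAR to mm10 and handled in Partek Flow 8.0. The authors deposited a table whose columns each sum to 1e+06, so its values were read as CPM. Between 78.5% and 83.5% of values under 100 reads were whole multiples of 1 step (tolerance 0.03), which gave the depth, but too few for a test on whole counts. The authors' comparison tables hold p-values, false discovery rates, ratios, fold changes and group means and were not used.

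Values were divided by trimmed mean of M-values factors (30% of M and 5% of A trimmed) and analysed as log2(CPM + 1), a scale that understates changes of low genes. Genes needed the CPM of 10 reads at median depth in as many libraries as the smaller group has, and 15 reads' worth in total. limma 3.58.1 (R 4.3.3) with a trend fitted the libraries compared, and Benjamini-Hochberg adjustment covered all genes tested. Intervals are 95%. On simulated data for the cKO hemispheres, 72% of 2-fold and 97% of 4-fold changes were called over 16630 genes, and for the Ctrl hemispheres 55% and 91% over 16412. The simulated libraries were drawn independently, without a length trend or shared mice, and changes under 2-fold were not simulated. Python 3.11.15 with pandas 2.3.3 did the other steps.

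The same mouse number marks the same animal, and IL and CL deviations from the group means correlated at 0.18 to 0.61 in the 6 mice with both sides (-0.53 to 0.50 in 19 other pairs). The members and lists were chosen with earlier results of these data known. Of the lists, the text names all members, other oxidase genes that were tested or nearly absent, and up to 3 called genes in each direction by size of change. A few genes that this rule would name are not reported here, and neither is the check of the deleted gene. Other marker lists gave 1 of 7 border-associated macrophage markers higher in both hemisphere contrasts, 1 of 5 lymphoid markers lower in Ctrl and 0 of 6 called in cKO, and 1 marker of other brain cells, *Gfap*, higher in both. With the block, border-associated macrophage markers gave 3 higher and 1 lower in cKO and 1 higher and 3 lower in Ctrl. Lymphoid markers gave 3 lower in Ctrl and 0 called in cKO. Those of other brain cells gave 1 higher in both genotypes and 2 lower in Ctrl. Of all genes, 6.69% (Ctrl) and 22.7% (cKO) were called without the block, and 3302 of 16376 and 2102 of 16752 with it. Alternatives were other scalings, pseudocounts of 0.5 and 0.1, other filters and thresholds, all 14 libraries in a fit, the mouse as a block, and each library left out. Chosen after seeing the data were a transcript-length correction, the leaving out of mouse 3546, and correlations without its IL library.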

Additional observations from a re-analysis of the deposited data

Results flagged for a closer look

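Of 12 combinations of a member with a group of 4 libraries, 2 held a library farther from the rest than the 95% critical value of Dixon's test for 4 samples allows, where chance gives about 1 in 20. Both were *Cyba*. In Ctrl IL, mouse 3546 was at 158 CPM, against 681 to 740 CPM in the other 3 libraries, and its shortest genes as a whole were low. In Ctrl CL, mouse 3541 was at 607 CPM, against 439 to 450 CPM, and it also had the highest neutrophil marker sum, 9093 CPM. Its shortest genes as a whole were high, with a median log2 deviation of 0.23. The cause of either value was not tested. No member had a called difference between the hemisphere effects of the genotypes.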

How the results depend on the processing

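Of 384 values of members' log2 fold changes under alternatives other than leaving out a library, 364 kept their direction and side of the threshold, 15 lost and 4 gained a call, and 1 changed sign. The reversed value was *Hvcn1* in the cKO hemispheres with all 14 libraries in a fit (0.0112). In that contrast 3 members were called, and 0 were called with a fold change of at least 2, with all 14 libraries in a fit, with the mouse as a random effect, with the mouse as a replicate block, and with the block and length correction together. In the Ctrl hemispheres 0 were called, and 1 was called with the mouse as a random effect, with the mouse as a replicate block, and with the block without mouse 3546. The block changed no other call of a member. Of 252 values with a library left out, 227 kept direction and call, 17 changed sign, 7 lost and 1 gained a call. Members called then ranged from 1 to 4 in the cKO hemispheres and were 0 in the other tests. In the Ctrl hemispheres the log2 fold changes ranged from -0.13 to 0.41 (*Cybb*, below 0 without Ctrl CL 3551), -0.18 to 0.70 (*Cyba*, below 0 without Ctrl CL 3551 or Ctrl IL 3541, 3545 or 3551) and -0.0126 to 0.33 (*Ncf4*, below 0 without Ctrl CL 3551). In the cKO hemispheres *Hvcn1* ranged from -0.13 to 0.0733 (above 0 without cKO CL 791 or cKO IL 3592). Between genotypes in IL, *Cybb* ranged from -0.30 to 0.0797 (above 0 without Ctrl IL 3541 or 3546 or cKO IL 3592), *Rac2* from -0.20 to 0.0852 (above 0 without Ctrl IL 3541 or 3545 or cKO IL 3592) and *Cyba* from -0.30 to 0.57 (below 0 without Ctrl IL 3546). In the interaction, *Rac2* ranged from -0.00616 to 0.39 (below 0 without Ctrl CL 3541) and *Cyba* from -0.11 to 0.75 (below 0 without Ctrl IL 3546). The cause of these moves was not tested. Across all genes the Ctrl contrast called 1096 and the cKO contrast 3811, and 3302 and 2102 with the block. Over every alternative run, including those with a library left out, genes called ranged from 498 to 4202 (Ctrl hemispheres), 815 to 3892 (cKO hemispheres), 49 to 293 (genotypes in IL, 114 as reported), 70 to 280 (genotypes in CL, 144 as reported) and 0 to 3 (interaction). The main limits are 3 or 4 mice a group, 2 cKO mice with both sides, a shallow library of 12.2 M reads and CD11b+ sorting that keeps neutrophils and monocytes.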
